A study of Mus musculus with 15 samples.

Results

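The metallothionein genes Mt1, Mt2 and Mt3 were followed through a study of erythropoietin, the hormone of red blood cell formation, given before a hypoxic-ischemic injury of the mouse forebrain. Every probe set whose platform annotation gave 1 of these 3 symbols alone was taken, which found 4 of the 45037 probe sets without controls, for 3 of 18193 named genes. They were 1422557_s_at and 1451612_at for Mt1, 1428942_at for Mt2 and 1420575_at for Mt3. Forebrain total RNA was hybridised in 3 groups of 5 arrays. The EPO-HI group had received erythropoietin into the peritoneum at 5 U per g, the VEH-HI group vehicle, and both injections came 1 h before hypoxic ischemia, in which the brain lacks both oxygen and blood supply. The VEH-Sham group received vehicle 1 h before sham surgery. No group received erythropoietin with sham surgery, so erythropoietin was tested only on top of the injury. Strain, age, sex and the time after injury were not given in the sources used here. No label states that each sample is an animal of its own, so p-values cover the spread between samples, which may be technical.

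Metallothioneins are small proteins rich in cysteine that bind zinc and copper and can take up reactive oxygen species. Mt1 and Mt2 are made in most tissues, and in the brain mainly in astrocytes. Their genes are switched on by metals through the zinc-sensing transcription factor MTF-1, and also by glucocorticoids, cytokines and oxidative stress. Mt3 is the brain-enriched member, known as growth inhibitory factor, is made in neurons and astrocytes, and is less readily induced by metals. Mt4, the remaining mouse member, is a gene of stratified squamous epithelium.

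In the RefSeq annotation of GRCm38.p6 the 4 genes lie next to each other on chromosome 8 in the order Mt4, Mt3, Mt2 and Mt1, all on the plus strand. The promoter windows of the 3 members, whose signals did not move by equal amounts, are shown with their motif matches. Whether these sequences bear on the unequal changes was not tested. Each window holds 300 bases up to and just past the annotated start, at chr8:94178839-94179138 for Mt1, chr8:94172368-94172667 for Mt2 and chr8:94152357-94152656 for Mt3, from RefSeq on GRCm38.p6, plus strand. Capitals mark matches, on either strand, to the metal response element core to which MTF-1 binds, searched as TGCACNC and TGCGCNC.
Mt1: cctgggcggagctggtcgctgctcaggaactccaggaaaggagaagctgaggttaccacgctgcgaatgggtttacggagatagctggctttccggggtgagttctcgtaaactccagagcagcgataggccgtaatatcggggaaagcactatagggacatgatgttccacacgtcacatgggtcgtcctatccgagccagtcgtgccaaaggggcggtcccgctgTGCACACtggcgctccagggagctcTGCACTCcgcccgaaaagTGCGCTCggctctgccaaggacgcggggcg
Mt2: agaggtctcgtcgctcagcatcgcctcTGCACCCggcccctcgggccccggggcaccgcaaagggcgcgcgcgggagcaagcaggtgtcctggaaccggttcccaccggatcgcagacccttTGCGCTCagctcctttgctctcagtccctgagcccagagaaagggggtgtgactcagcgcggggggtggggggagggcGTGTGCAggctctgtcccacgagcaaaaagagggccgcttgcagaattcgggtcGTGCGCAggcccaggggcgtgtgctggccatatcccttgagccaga
Mt3: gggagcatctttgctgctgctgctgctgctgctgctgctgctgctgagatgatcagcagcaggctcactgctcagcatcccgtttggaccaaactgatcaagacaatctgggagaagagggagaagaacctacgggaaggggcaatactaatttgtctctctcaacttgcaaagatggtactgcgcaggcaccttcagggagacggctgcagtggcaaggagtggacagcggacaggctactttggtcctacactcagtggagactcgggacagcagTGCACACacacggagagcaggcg

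The Mt1 window held 3 such matches, the Mt2 window 4 and the Mt3 window 1. Of 32851 promoter windows of the same length, 25.7% held at least 1 match, 1.97% at least 3 and 0.517% at least 4. The 3 matches of Mt1 lay at positions -23 to -17, 2 to 8 and 20 to 26, counted from 0 at the annotated start, and none overlapped another. Those of Mt2 lay at -223 to -217, -128 to -122, -50 to -44 and 4 to 10, the last pair on the minus strand. The single match of Mt3 lay past the start, at 27 to 33. The antioxidant response element core, TGACNNNGC, was found once in these 3 windows, in that of Mt2 at -79 to -71, and in 12.4% of all windows. The STAT palindrome TTCNNNGAA and the E-box CACGTG (8.3% and 7.15% of all windows) were not found in these 3 windows. These are matches of letters in a short window placed by the annotated start. Sequence outside the windows was not searched, so elements of these genes that lie there are not counted. Whether the annotated starts are the starts used in forebrain was not checked. The windows may therefore miss parts of a promoter, and their counts do not compare the whole promoters of the 3 genes.

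**Figure D1:**
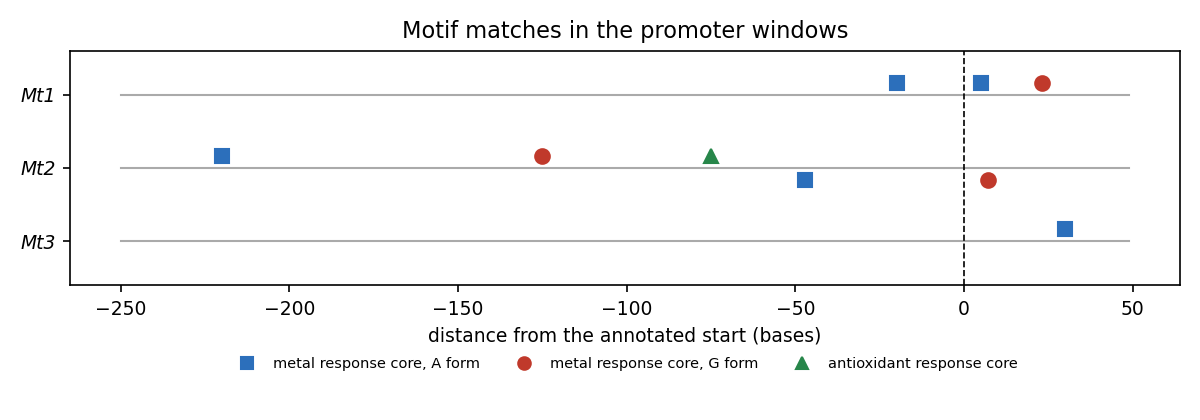
Positions of motif matches in the promoter windows of Mt1, Mt2 and Mt3, in bases from the annotated start (dashed line). Symbols above a line are matches on the plus strand and symbols below it on the minus strand, and the A and G forms are the metal response cores TGCACNC and TGCGCNC. Within these windows Mt2 has 4 metal response matches, Mt1 has 3 near the annotated start and Mt3 has 1. Sequence outside the windows was not searched.

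The values are the authors' linear intensities per probe set, scaled so that each array has the same trimmed mean. Tests used log2(intensity + 16), on which fold changes of dim probe sets are understated, and the 27022 probe sets with the highest mean were tested. Of the 4 metallothionein probe sets 3 passed this filter, 1 for each gene. The other Mt1 probe set, 1451612_at, was dim, with intensities of 2.13 to 16.8 in EPO-HI, 3.41 to 18.1 in VEH-HI and 7.87 to 40.5 in VEH-Sham. It did not share the direction of the bright Mt1 probe set in VEH-HI against VEH-Sham (-0.34, SE 0.24, limma adjusted p = 0.342 with no filter). Mt1 below means 1422557_s_at. The suffix _s_at marks an Affymetrix probe set whose probes match more than 1 transcript, so signal from a near-identical copy cannot be told apart from Mt1. Whether its probes also match Mt2 was not checked, so the Mt1 and Mt2 signals are not known to be independent. Mt4 was under the filter with intensities of 1.3 to 20.7 over all 15 arrays and is not treated further.

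The arrays differed beyond their labels. The median intensity was 39.3 to 44.5 in the 10 injured arrays and VEH-Sham 5, against 55.4 to 58.0 in VEH-Sham 1 to 4. As a sign of RNA quality, the Gapdh control probe sets gave 3' over 5' ratios of 0.716 to 0.756 in these 11 arrays and 0.634 to 0.719 in VEH-Sham 1 to 4. Only VEH-Sham 5 joins the sham group to the array set of all injured samples, so the members' values, and those of the other genes named, are given against VEH-Sham 5 alone as well. Past the filter were 14 of 15 listed neuron markers and 15 of 15 astrocyte markers, beside 13168 of all 18193 named genes. Lists of other cell types passed in like shares, such as 10 of 10 for meninges and fibroblasts and 9 of 10 for endothelium. These counts therefore single out no cell type.

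Mt1 had intensities of 1800.4, 1627, 1318, 1449.95 and 3392 in EPO-HI 11 to 15. It had 3274, 1461, 2297, 3553 and 1701 in VEH-HI 6 to 10. In VEH-Sham 1 to 5 it had 659, 560.04, 514, 571 and 958. Every hypoxic ischemia array lay above every sham array, VEH-Sham 5 was the highest sham array, and EPO-HI 15 stood above the other EPO-HI arrays among the highest VEH-HI arrays.

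Mt2 had intensities of 1472, 1322, 1069, 1245 and 3055 in EPO-HI 11 to 15. In VEH-HI 6 to 10 it had 2655, 1454, 2647, 2341 and 1376. The 5 VEH-Sham arrays had 502, 667, 504, 538 and 756. As with Mt1, injured and sham arrays did not overlap and VEH-Sham 5 was the highest sham array, while here EPO-HI 15 was the highest of all.

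Mt3 had intensities of 1736, 1846, 1393, 1726 and 1947 in EPO-HI 11 to 15. It had 2163, 1862, 1914, 1265 and 1757 in VEH-HI 6 to 10. The VEH-Sham arrays had 729, 989.6, 755, 784 and 1251. The groups did not overlap here either, but narrowly, since VEH-HI 9 was only 0.017 above VEH-Sham 5 on the log2 scale. VEH-HI 9 thus held the highest Mt1 and the lowest Mt3 of the 10 injured arrays.

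**Figure D2:**
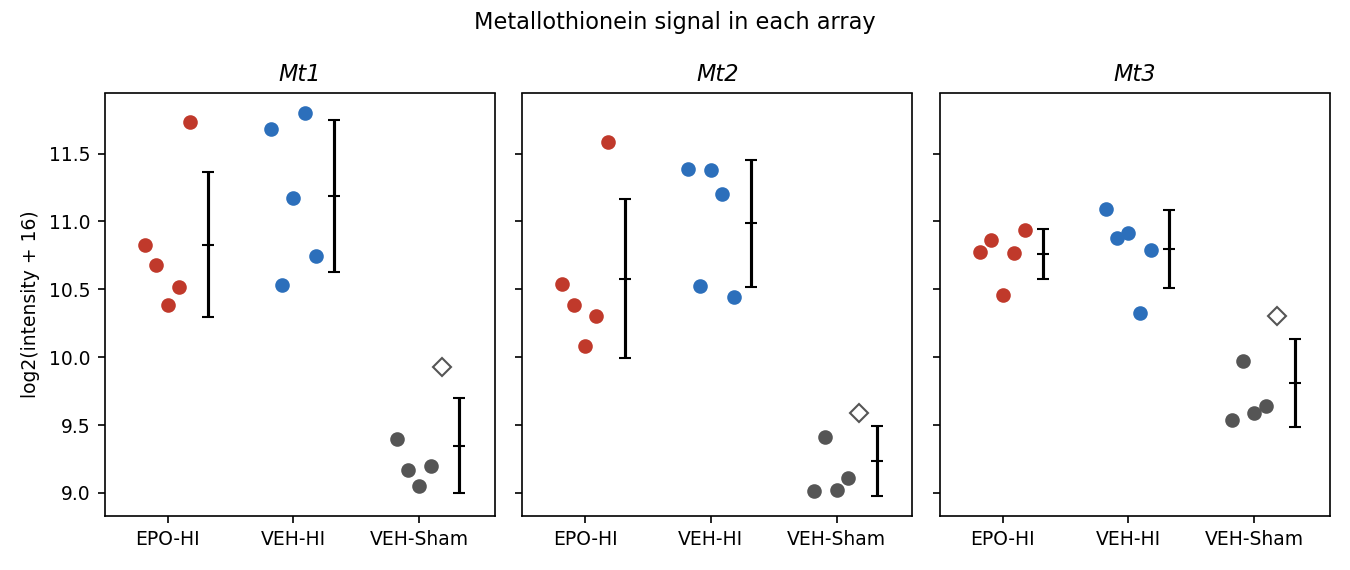
Signal of Mt1, Mt2 and Mt3 as log2(intensity + 16) in each array of EPO-HI, VEH-HI and VEH-Sham, with the mean and SD (n = 5) beside each group and VEH-Sham 5 as an open diamond. In all 3 panels each injured array lies above each sham array, and VEH-Sham 5 is the highest sham array.

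Injury without erythropoietin was followed by higher levels of all 3 metallothioneins in VEH-HI than in VEH-Sham. Mt1 averaged 11.19 ± 0.56 in VEH-HI and 9.35 ± 0.35 in VEH-Sham (log2 scale, SD, n = 5 each), a 3.58-fold rise with a 95% interval of 2.52 to 5.07 (limma adjusted p = 0.000154). Mt2 averaged 10.99 ± 0.47 in VEH-HI and 9.23 ± 0.26 in VEH-Sham, a 3.37-fold rise with an interval of 2.43 to 4.68 (limma adjusted p = 0.000144). Mt3 averaged 10.8 ± 0.29 in VEH-HI and 9.81 ± 0.32 in VEH-Sham, a 1.98-fold rise with an interval of 1.61 to 2.44 (limma adjusted p = 0.000414). By limma, 22.8% of tested probe sets passed in either direction and 9.85% as higher. Ordered by log2 difference, Mt1 was in place 24, Mt2 in place 31 and Mt3 in place 231 of 27022. In this bulk RNA fewer or more cells of a type and less or more RNA per cell cannot be told apart. The exact permutation p was 0.00794 for each gene, the smallest that 252 splits can give, and 3.71% of tested probe sets had every VEH-HI array above every VEH-Sham array.

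Against VEH-Sham 5 alone the differences were smaller and did not pass. They were 1.26 for Mt1 (SE 0.44, limma adjusted p = 0.597), 1.39 for Mt2 (SE 0.42, limma adjusted p = 0.487) and 0.49 for Mt3 (SE 0.22, limma adjusted p = 0.73), where the lone sham array is assumed to vary like the other groups. Their 95% intervals, not adjusted for the number of probe sets, were 0.33 to 2.18, 0.50 to 2.29 and 0.031 to 0.95. Only 7 probe sets (0.0259%) passed as higher in that fit. VEH-Sham 5 itself was 1.65 times the mean of VEH-Sham 1 to 4 for Mt1, 1.37 times for Mt2 and 1.54 times for Mt3. With the array set as a block the adjusted p-values were 0.44, 0.33 and 0.687 (limma), and 0.0111% of probe sets passed as higher. Without VEH-Sham 5 the differences were 1.98, 1.84 and 1.11 (limma adjusted p = 1.5e-05, 2.25e-05 and 9.91e-06), with 14.1% of probe sets passing as higher. What the array set contributed to the rise was not tested, and for the sham arrays 1 to 4 it cannot be told apart from the injury. All 10 injured arrays were above VEH-Sham 5 for each of the 3 genes, as for 10.4% of tested probe sets, and above all 5 sham arrays, as for 1.59%. With 1 sham array against 10 the smallest exact one-sided p is 0.0909.

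The comparison of EPO-HI with VEH-Sham gave rises of the same kind and shares the sham arrays with the one above. Mt1 averaged 10.83 ± 0.53 in EPO-HI against 9.35 ± 0.35 in VEH-Sham, 2.79-fold higher (log2 difference 1.48, SE 0.24, limma adjusted p = 0.00165). Mt2 averaged 10.58 ± 0.59 in EPO-HI against 9.23 ± 0.26 in VEH-Sham, 2.54-fold higher (1.35, SE 0.23, limma adjusted p = 0.00186). Mt3 averaged 10.76 ± 0.18 in EPO-HI against 9.81 ± 0.32 in VEH-Sham, 1.93-fold higher (0.95, SE 0.14, limma adjusted p = 0.00116). Of all tested probe sets 18.3% passed in either direction and 7.42% as higher, and 3.16% had every EPO-HI array above every VEH-Sham array. Against VEH-Sham 5 alone the differences were 0.90, 0.99 and 0.45, none of which passed (limma adjusted p = 0.9999 for each, with 0.0185% of probe sets passing as higher, or 0.0148% where the array set was a block). Without VEH-Sham 5 they were 1.62, 1.44 and 1.07, with 12.9% of probe sets passing as higher. In order of level each gene was highest in VEH-HI, then EPO-HI, then VEH-Sham, and the first pair in that order did not differ beyond their spread.

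Whether erythropoietin before the injury altered these levels was asked of EPO-HI against VEH-HI, and no metallothionein passed. Mt1 differed by -0.36 (SE 0.24, 95% interval -0.86 to 0.15, limma adjusted p = 0.9997), which is 0.78 times the VEH-HI level with an interval of 0.55 to 1.11. Mt2 differed by -0.41 (SE 0.23, -0.88 to 0.067), or 0.754 times with an interval of 0.543 to 1.05. Mt3 differed by -0.038 (SE 0.14, -0.34 to 0.26), or 0.974 times with an interval of 0.79 to 1.2. The exact permutation p-values were 0.31, 0.294 and 0.762. These intervals do not show that the groups are alike: they include falls of Mt1 and Mt2 to near 0.55 of the VEH-HI level. No probe set passed in this comparison by limma (0.0% of 27022), while 1066 had an unadjusted p under 0.05.

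The difference of Mt1 and Mt2 between EPO-HI and VEH-HI moved with single arrays. Leaving out EPO-HI 15 moved Mt1 to -0.58 (SE 0.22) and Mt2 to -0.66 (SE 0.18), still without passing (limma adjusted p = 0.999 for both). Leaving out VEH-HI 9 moved Mt1 to -0.20 (SE 0.24) and leaving out VEH-HI 6 moved it to -0.23 (SE 0.25). The other 4 EPO-HI arrays held Mt2 at intensities of 1069 to 1472, beside 1376 and 1454 in VEH-HI 10 and 7 and 2341 to 2655 in VEH-HI 6, 8 and 9. Injured arrays varied more than sham arrays for Mt1 and Mt2: the highest over the lowest Mt1 intensity was 2.57 in EPO-HI, 2.43 in VEH-HI and 1.28 in VEH-Sham 1 to 4, or 1.86 in all 5 sham arrays. For Mt3 these ratios were 1.4 in EPO-HI, 1.71 in VEH-HI and 1.36 in VEH-Sham 1 to 4, or 1.72 in all 5 sham arrays.

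**Figure D3:**
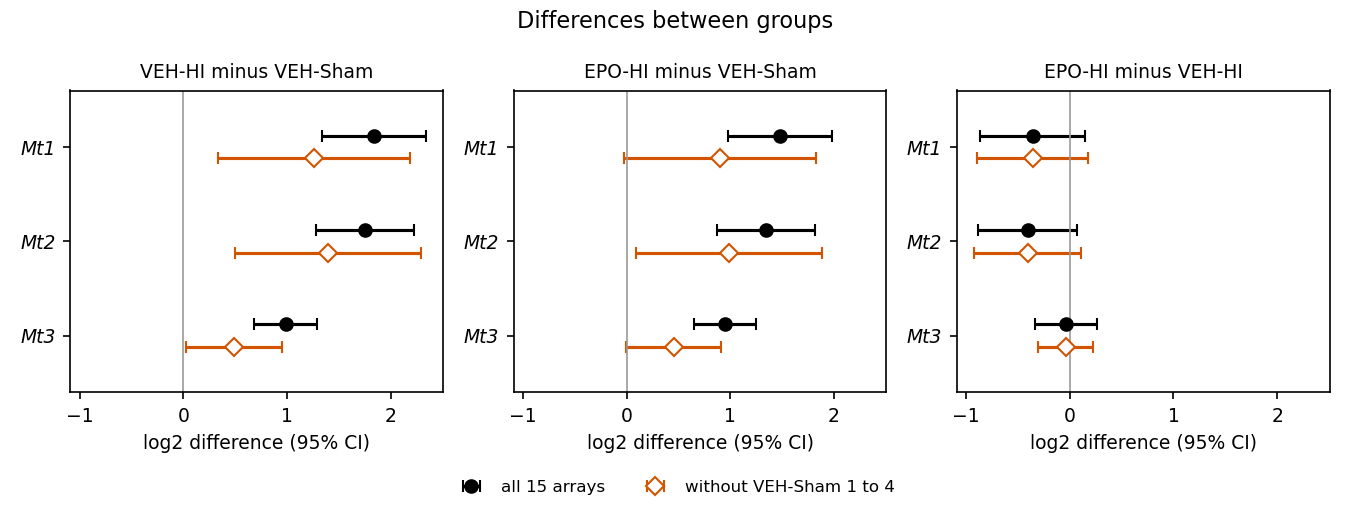
Log2 differences of Mt1, Mt2 and Mt3 with 95% intervals (limma, not adjusted for the number of probe sets) in the 3 comparisons, from all 15 arrays (filled) and without VEH-Sham 1 to 4 (open). Against sham the values are smaller without VEH-Sham 1 to 4 (1.26 for Mt1 in VEH-HI, beside 1.84 with all arrays), and between EPO-HI and VEH-HI the intervals include 0.

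Whether the members changed by unequal amounts was tested on the difference between probe sets within each array. Mt1 minus Mt3 averaged 0.39 in VEH-HI and -0.46 in VEH-Sham, a difference of 0.85 (SE 0.33, exact two-sided permutation p = 0.0159, 0.0476 adjusted over 6 such tests). Mt2 minus Mt3 averaged 0.19 in VEH-HI and -0.58 in VEH-Sham, a difference of 0.77 (SE 0.24, exact permutation p = 0.00794, 0.0476 adjusted). Mt1 and Mt2 thus rose more than Mt3 after the injury, and against VEH-Sham 5 alone these differences were 0.77 and 0.90, as values with no test. Mt1 minus Mt2 averaged 0.20 in VEH-HI and 0.12 in VEH-Sham, a difference of 0.085 (SE 0.18, exact permutation p = 0.722). For EPO-HI against VEH-HI the 3 pairs gave 0.049 (Mt1 minus Mt2), -0.32 (Mt1 minus Mt3) and -0.37 (Mt2 minus Mt3), with exact permutation p-values of 0.802, 0.421 and 0.31.

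Among the 10 injured arrays, all of 1 array set, the signals of Mt1 and Mt2 moved together. Whether a match of the Mt1 probes to Mt2 has a part in this was not tested. Pearson's r was 0.925 and Spearman's rho 0.891 (permutation p = 0.00065 and 0.00117, 0.00195 and 0.00351 adjusted over 3 pairs), and r was 0.923 without VEH-HI 9 and EPO-HI 15, the arrays farthest from the Mt1 median. The Mt2 values left a gap of 0.66 on the log2 scale, with EPO-HI 15 and VEH-HI 6, 8 and 9 above it. Within the 6 arrays below the gap r was 0.759 and rho 0.829 (exact permutation p = 0.0694 and 0.0583, 0.183 and 0.175 adjusted), so the relation over 10 arrays rests in part on the arrays above it.

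Mt3 showed no such relation to Mt1 over the 10 arrays (r = 0.104, rho = 0.321, permutation p = 0.786 and 0.368). Without VEH-HI 9 and EPO-HI 15 the r was 0.793, so the value over 10 arrays rests on those arrays. Within the 6 arrays below the gap r was 0.584 (exact permutation p = 0.25). Mt2 and Mt3 had r = 0.334 and rho = 0.648 (permutation p = 0.349 and 0.0494, adjusted 0.523 and 0.074), and r = -0.037 without VEH-HI 6 and EPO-HI 15. Within the 6 arrays below the gap their r was 0.853 and rho 0.6 (exact permutation p = 0.122 and 0.242, adjusted 0.183 and 0.362).

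**Figure D4:**
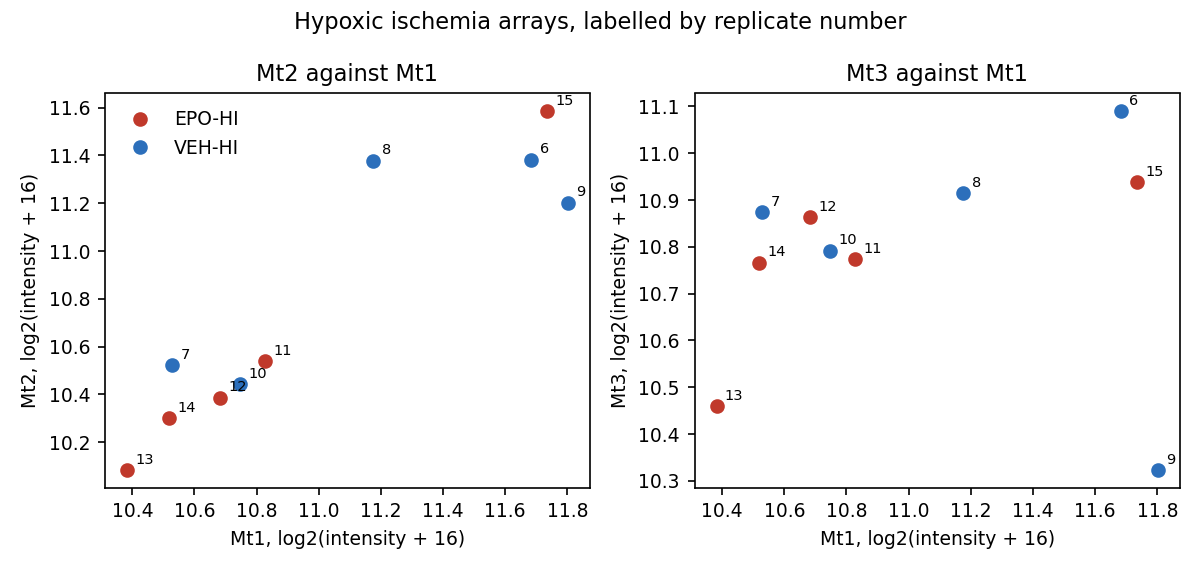
Mt2 and Mt3 against Mt1 in the 5 EPO-HI and 5 VEH-HI arrays, as log2(intensity + 16), each point labelled by its replicate number. Mt2 follows Mt1, with arrays 6, 8, 9 and 15 above a gap, while VEH-HI 9 joins the highest Mt1 to the lowest Mt3.

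The genes most like each member over the 10 injured arrays were taken from 12511 genes by Pearson's r, as a description. The 99th percentile of r over all these genes was 0.776 for Mt1, 0.766 for Mt2 and 0.775 for Mt3, so high values are common with 10 arrays. Highest with Mt1 stood Pecr, a peroxisomal enoyl-CoA reductase gene (0.929), Dcxr, a carbonyl reductase gene (0.923), Rbm7, an RNA-binding gene of nuclear RNA decay (0.912), Nyx (0.905) and Higd1a, a mitochondrial gene induced by hypoxia (0.902). Highest with Mt2 stood the chemokine receptor gene Ccr1 (0.939), the long noncoding RNA gene Chaserr (0.933), the unconventional myosin gene Myo7a (0.932), the neurotrophin gene Bdnf (0.916) and M6pr, a mannose 6-phosphate receptor gene (0.912). Their r with the other gene of the pair was 0.801, 0.876, 0.73, 0.836 and 0.778 for the 5 genes of Mt1 and 0.776, 0.872, 0.878, 0.86 and 0.826 for those of Mt2. Of the 100 genes most like Mt1, 38 were among the 100 most like Mt2 and 0 among the 100 most like Mt3. These overlaps largely follow from the correlations between the members on the same 10 arrays (r = 0.925 and 0.104), so they are no separate evidence. The lower of these r values was 0.793 without VEH-HI 9 and EPO-HI 15. Highest with Mt3 stood the zinc finger gene Cxxc5 (0.935), Naf1, a gene of box H/ACA ribonucleoprotein assembly (0.916), the endocytic gene Ehd4 (0.909), the histone demethylase gene Kdm6b (0.907) and the coronin gene Coro6 (0.905).

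Genes beside the cluster on chromosome 8 did not pass in VEH-HI against VEH-Sham, beside 11.9% higher and 11.5% lower of all 13168 tested genes. With so few neighbours tested, the lack of a call does not set them apart from other genes. Of the 5 nearest protein-coding genes on each side 7 were tested, and their log2 differences lay between -0.38 (Ogfod1) and 0.55 (Bbs2), with limma adjusted p-values of 0.0935 to 0.373. Against VEH-Sham 5 alone Ogfod1 was at -0.020 and Bbs2 at 0.067. The nearest neighbour of Mt1, the nuclear pore gene Nup93, was at -0.14 (SE 0.11), and at -0.035 against VEH-Sham 5.

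Of 24 listed genes of zinc handling, which are zinc transporters and the sensor gene Mtf1, 21 were tested. In VEH-HI against VEH-Sham 4 were higher and 2 lower, beside 11.9% of all 13168 tested genes called higher and 11.5% lower. The list's median was 0.02, beside -0.02 over all tested genes. Over all 15 lists named here and below, 69 of 174 tested genes passed in VEH-HI against VEH-Sham, while 0 passed in the limma fit against VEH-Sham 5 alone, in which 30 had an unadjusted p under 0.05. Slc39a7, a transporter that releases zinc from the endoplasmic reticulum, rose by 0.64 (SE 0.13, limma adjusted p = 0.00264) but was at 0.22 against VEH-Sham 5 alone. The zinc importer gene Slc39a1 rose by 0.39 (limma adjusted p = 0.0304) and was at 0.61 against VEH-Sham 5. The other calls were Slc30a9 (0.39) and Slc39a13 (0.63), both higher, and Slc39a5 (-0.96), lower, at -0.13, 0.41 and -0.58 against VEH-Sham 5.

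Mtf1, which encodes the factor that drives Mt1 and Mt2 in response to zinc, did not rise with them. Its brightest probe set was lower in VEH-HI (-0.58, SE 0.19, limma adjusted p = 0.0371) but at 0.066 against VEH-Sham 5 alone. Its other tested probe sets were at -0.22 and -0.069 (limma adjusted p = 0.339 and 0.798), and at 0.12 and 0.073 against VEH-Sham 5. Between EPO-HI and VEH-HI the 3 probe sets were at -0.0072, 0.025 and -0.13.

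Of 14 tested copper handling genes 6 were higher and 0 lower in VEH-HI, or 1 lower without VEH-Sham 5 (median 0.13, and 0.12 against VEH-Sham 5). They were the copper chaperone genes Atox1 (0.49, SE 0.10), Ccs (0.48, SE 0.10) and Cox17 (0.54, SE 0.13), the ferroxidase gene Cp (1.11, SE 0.24), the copper importer gene Slc31a1 (0.34, SE 0.09) and the superoxide dismutase gene Sod1 (0.26, SE 0.08). Against VEH-Sham 5 alone these 6 genes were at 0.16 to 0.49. They were chosen as higher in a fit that holds the same arrays, so their sign here is no separate evidence. Of all 14 tested copper handling genes 11 were above 0 against VEH-Sham 5, where the median over all tested genes was 0.0026.

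Genes of the signals known to induce metallothioneins were partly higher in VEH-HI. Of 15 tested genes of the interleukin-6 family and STAT3 response 6 were higher and 2 lower (median 0.43, and 0.42 against VEH-Sham 5). Among them were the feedback inhibitor gene Socs3 (1.97, SE 0.40, limma adjusted p = 0.00294), the transcription factor genes Cebpd (1.75, SE 0.32) and Stat3 (0.73, SE 0.18) and the oncostatin M receptor gene Osmr (1.18, SE 0.26). Against VEH-Sham 5 alone these 4 genes were at 1.99, 1.32, 0.83 and 1.15, while Il6 and Lif were under the filter. The other tested probe set of Osmr did not share its direction in VEH-HI against VEH-Sham. Of 14 glucocorticoid-induced genes 4 were higher and 0 lower (median 0.23, and 0.18 against VEH-Sham 5), with 7 higher and 1 lower without VEH-Sham 5. Their 4 calls were Cdkn1a, a cell cycle inhibitor gene (0.63), Nfkbia, which encodes an inhibitor of NF-kB (0.46), the receptor feedback gene Errfi1 (0.35) and the sulfotransferase gene Sult1a1 (0.58). The other 10 did not pass in the fit of all 15 arrays, Fkbp5, Sgk1, Tsc22d3 and Per1 among them. Against VEH-Sham 5 alone Cdkn1a was at 0.39, Nfkbia at 0.34, Errfi1 at 0.024 and Sult1a1 at 0.48. The other tested probe set of Errfi1 did not share its direction in VEH-HI against VEH-Sham, and of 4 others of Nfkbia 3 did. Of 15 genes of NRF2 and oxidative stress 5 were higher and 1 lower, or 7 and 3 without VEH-Sham 5 (median 0.18, and 0.01 against VEH-Sham 5), among them Hmox1, the heme-degrading enzyme (1.52, SE 0.32), at 0.89 against VEH-Sham 5.

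Some markers of astrocytes, of microglia and macrophages and of neutrophils were higher in VEH-HI along with the metallothioneins, and their part in the rise was not tested. Of 15 astrocyte markers 6 were higher and 0 lower in VEH-HI (median 0.33, and 0.14 against VEH-Sham 5), with the mean level of the list at 9.47 to 9.63 in EPO-HI, 9.35 to 9.83 in VEH-HI and 9.04 to 9.41 in VEH-Sham (log2 scale). Gfap, the intermediate filament gene of astrocytes, was 1.32 higher (SE 0.27), and 1.17 above VEH-Sham 5 alone, and Aldh1l1, a folate enzyme gene of astrocytes, was 0.83 higher and 0.40 above VEH-Sham 5. Of 14 reactive astrocyte markers 11 were higher and 0 lower (median 1.11, and 1.25 against VEH-Sham 5), and the list stood at 7.56 to 8.43 in EPO-HI, 7.47 to 8.88 in VEH-HI and 6.89 to 7.18 in VEH-Sham. Among them were Timp1, a metalloproteinase inhibitor gene (1.72, SE 0.20), the protease inhibitor gene Serpina3n (2.40, SE 0.39) and the filament gene Vim (1.23, SE 0.14), at 1.75, 1.23 and 1.27 against VEH-Sham 5. The reactive astrocyte list was lowest in VEH-Sham 5 (6.89), the sham array in which Mt1, Mt2 and Mt3 were highest. The interleukin-6 family and STAT3 response was lowest there as well (6.81). Of the sham arrays VEH-Sham 5 was highest for other lists, among them astrocytes (9.41), neurons (10.63) and NRF2 and oxidative stress (8.42). Of 13 markers of microglia and macrophages 8 were higher and 1 lower (median 0.58, and 0.73 against VEH-Sham 5), with 7.58 to 8.05 in EPO-HI, 7.86 to 8.35 in VEH-HI and 7.16 to 7.42 in VEH-Sham. Lgals3, the galectin-3 gene of activated macrophages, was 2.48 higher (SE 0.28), Mpeg1, a perforin-like gene of macrophages, 2.14 higher (SE 0.24) and the complement gene C1qc 1.33 higher (SE 0.16), at 1.85, 1.11 and 1.17 against VEH-Sham 5.

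Of 6 neutrophil markers 2 were higher and 0 lower, or 1 lower without VEH-Sham 5 (median 0.47, and 0.68 against VEH-Sham 5), with the list at 5.56 to 6.85 in EPO-HI, 5.73 to 7.27 in VEH-HI and 5.48 to 5.87 in VEH-Sham. EPO-HI 15, with the highest Mt1 and Mt2 of its group, also had the highest neutrophil level of its group (6.85). The same held for its interleukin-6 family and STAT3 response (7.64) and glucocorticoid-induced genes (8.47). It did not hold for reactive astrocyte markers (8.23, against 8.43 in EPO-HI 11) or for microglia and macrophage markers (8.02, against 8.05 in EPO-HI 11). VEH-HI 6, high in all 3 metallothioneins, had the highest levels of reactive astrocyte markers (8.88) and of microglia and macrophage markers (8.35). VEH-HI 9, with the highest Mt1, was the fourth of 5 in its group for reactive astrocyte markers (7.90) and for neutrophil markers (6.05). For microglia and macrophage markers it was at 8.09, below VEH-HI 6 (8.35) and above VEH-HI 7, 8 and 10 (8.08, 7.90 and 7.86). For astrocyte markers it was at 9.62, below VEH-HI 6 and 7 (9.83 and 9.73) and above VEH-HI 8 and 10 (9.52 and 9.35). No probe set of a listed gene had a value of 0, and Camp and Cxcr2 of the neutrophil list were under the filter.

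Neuron markers went the other way, with 0 of 14 higher and 3 lower (median -0.14, and -0.28 against VEH-Sham 5). The list stood at 10.26 to 10.58 in EPO-HI, 10.11 to 10.4 in VEH-HI and 10.37 to 10.63 in VEH-Sham. Lower were the vesicular glutamate transporter gene Slc17a7 (-0.59) and the GABA synthesis genes Gad1 (-0.28) and Gad2 (-0.42). Against VEH-Sham 5 alone they were at -0.47, -0.18 and -0.44. The other tested probe set of Gad1 did not share its direction in VEH-HI against VEH-Sham. Markers of meninges and fibroblasts were higher in 4 of 10 (median 0.31, and 0.0059 against VEH-Sham 5), those of endothelium higher in 2 and lower in 1 of 9 (0.23 and 0.036), and those of choroid plexus higher in 2 of 6 (0.28 and 0.06). Oligodendrocyte markers were lower in 1 of 8 (-0.08 and 0.076), and neither of the 2 tested erythroid markers passed (0.23 and 0.61). Between EPO-HI and VEH-HI 0 of the 174 listed genes passed by limma and 11 had an unadjusted p under 0.05, with list medians of -0.20 for reactive astrocytes, -0.22 for microglia and macrophages, -0.06 for astrocytes and 0.14 for neurons.

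**Figure D5:**
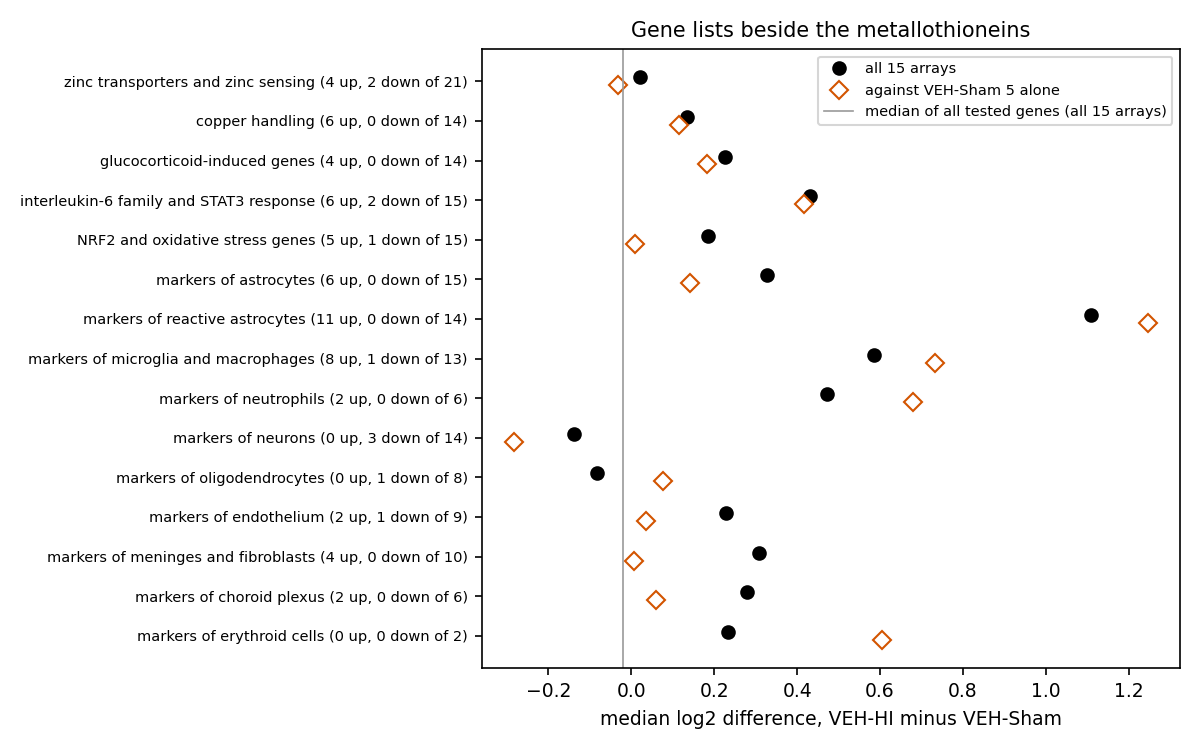
Median log2 difference, VEH-HI minus VEH-Sham, of each gene list (labels give members called higher and lower of those tested), from all 15 arrays (filled) and against VEH-Sham 5 alone (open), with the median of all tested genes as a line. Reactive astrocyte markers have the highest median among these lists (1.11) and zinc handling lies near that of all genes.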

How the data were processed

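Total RNA of mouse forebrain was measured on 15 Affymetrix arrays, and the table used holds the deposited linear intensity of each of 45101 probe sets, of which 64 were controls and left out. Which software summarised the probes was not given in the sources used here. The deposited values show that the authors scaled arrays to 1 trimmed mean intensity (150.0, with 2% trimmed at each end). Each of the 15 columns was matched by its name to 1 sample. Array data give no count, so precision is limited by the number of arrays.

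Groups came from the sample titles. Replicate numbers run through the series and pair no arrays. Intensities were taken as log2(intensity + 16), and the 60% brightest probe sets by mean (27022, mean log2 of at least 5.46) were tested in 1 limma fit of 3 group means (limma 3.58.1 under R 4.3.3, lmFit and eBayes with trend). Tests were two-sided, with Benjamini-Hochberg adjustment over all tested probe sets at 0.05. The fit was checked on simulated data. Exact permutation tests and correlations (100000 resamples) used scipy 1.17.1 and figures matplotlib 3.10.9 under Python 3.11.15.

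Gene symbols came from the platform annotation, matched by gene number to RefSeq for 34741 of 34945 probe sets with 1 symbol, while 932 had several symbols and 9160 none. Each listed gene was read from its brightest tested probe set. The naming rule took every member probe set, the 5 genes most like each member and up to 4 members of each of 15 lists with the smallest p in VEH-HI against VEH-Sham. All calls of the zinc and copper lists were named after their values were seen, as were the neighbouring genes. The members and lists were chosen with earlier results of these data known. Array sets were split where sorted array medians lay farthest apart (0.317 in log2). Alternatives were another pseudocount, filter, scaling or variance model, fits of the 2 groups alone, without VEH-Sham 5, with the array set as a block or within it, and leaving out each array.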

Additional observations from a re-analysis of the deposited data

Results flagged for a closer look

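EPO-HI 15 lay far from the other 4 EPO-HI arrays for Mt1 and Mt2 on the scale of linear intensity. Its gap to the next array was 0.768 of the group's whole range for Mt1 (3392 against 1800.4) and 0.797 for Mt2 (3055 against 1472). On the log2 scale neither gap was large enough to stand out, and no other of the 18 combinations of gene, group and scale checked did. Chance alone marks about 1 in 20 groups, and Mt1 and Mt2 share this array. Mt3 was at 1947 in the same array, beside 1393 to 1846 in the other EPO-HI arrays.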

How the results depend on the processing

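No paired analysis was possible because the groups share no replicate numbers. The rises of Mt1, Mt2 and Mt3 against VEH-Sham kept their direction under each alternative run, and passed in all of them except the array set as a block and the arrays of the set of VEH-Sham 5 alone, which leave 1 sham array to compare with. Both of these gave 1.26, 1.39 and 0.49 for VEH-HI and 0.90, 0.99 and 0.45 for EPO-HI. Leaving out 1 array gave 1.68 to 2.00, 1.65 to 1.89 and 0.92 to 1.11 for VEH-HI, and 1.25 to 1.62, 1.09 to 1.47 and 0.88 to 1.07 for EPO-HI. Against VEH-HI, EPO-HI stayed below the threshold throughout, at -0.58 to -0.20 for Mt1, -0.66 to -0.28 for Mt2 and -0.16 to 0.037 for Mt3 when 1 array was left out. Mt3 turned to 0.0050 with equal array medians. Mt1 minus Mt2 within arrays, which did not pass, ranged from -0.015 to 0.19 and, for EPO-HI against VEH-HI, from -0.052 to 0.15. The correlation of Mt1 with Mt3 turned to -0.014 with equal array medians. The other within-array differences were 0.58 to 1.03 and -0.50 to -0.048 (Mt1 minus Mt3) and 0.59 to 0.90 and -0.58 to -0.20 (Mt2 minus Mt3) when 1 array was left out. The value against VEH-Sham 5 alone was -0.13 for Mt1 minus Mt2, and this setting was chosen after seeing the data, as were the list counts without VEH-Sham 5.

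In VEH-HI against VEH-Sham 6174 probe sets passed, and 9609 without VEH-Sham 5, 3 with the array set as a block, 7 within the set, and 3824 to 9609 when 1 array was left out. For EPO-HI against VEH-Sham they numbered 4939, and 3008 with the 40% brightest probe sets, 10116 with equal array medians, 9047 without VEH-Sham 5, 4 with the block, 5 within the set, and 2509 to 9047 when 1 array was left out. EPO-HI against VEH-HI gave 0, and 0 to 4 when 1 array was left out. Of the calls for VEH-HI against VEH-Sham 43.1% were higher, 53.4% with quantile normalization and 88.4% with equal array medians. For EPO-HI against VEH-Sham these shares were 40.6%, 53.3% and 91.1%. Equal medians moved the median over all probe sets to 0.22 for VEH-HI and 0.27 for EPO-HI, against -0.06 and -0.05 in the scale as deposited. Relative to that median Mt1, Mt2 and Mt3 were 1.93, 1.85 and 1.08 higher in VEH-HI.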

Other observations

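Of the 15 genes most like a metallothionein over the 10 injured arrays, 4 passed in VEH-HI against VEH-Sham, all higher, beside 11.9% higher and 11.5% lower of all 13168 tested genes. Ccr1, a chemokine receptor gene of myeloid cells and the gene most like Mt2, was 0.70 higher in VEH-HI (SE 0.24, limma adjusted p = 0.0389) and 0.98 above VEH-Sham 5 alone. The histone demethylase gene Kdm6b, among the 5 most like Mt3, was 0.65 higher (SE 0.16, limma adjusted p = 0.00814), and 0.23 above VEH-Sham 5. Rbm7 was 0.52 higher (limma adjusted p = 0.0163) and Chaserr 0.35 higher (limma adjusted p = 0.0386), at 0.096 and 0.23 above VEH-Sham 5. The other 11 of the 15 genes did not pass, Bdnf at 0.11 and Higd1a at 0.28 among them (-0.069 and 0.066 against VEH-Sham 5), and between EPO-HI and VEH-HI none of the 15 passed by limma.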
